A study of Homo sapiens with 4 samples.

Results

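The genes of 9 enzymes that make, salvage or break down the deoxynucleotides of DNA were followed in cells treated with Nutlin-3 or with its solvent. They were TYMS, RRM1, RRM2, TK1, DUT, DCK, DTYMK, SAMHD1 and CTPS1, chosen by symbol, and all 9 were found among the 25693 human genes of the deposited count table. The cells were NGP, an established human neuroblastoma line, synchronised by serum starvation in every group and then given for 24 h either Nutlin-3, which keeps MDM2 from binding p53, or ethanol. RNA of single cells was caught on the ddSeq droplet device and read at the 3′ end of transcripts. There were 4 libraries, 2 per treatment, with ERCC spike-in RNA diluted 1000-fold in one and 10000-fold in the other. The labels name 1 line and no separate cultures.

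Each treatment was available as 1 pool of 250 columns, because column names carry a word for treated or untreated but no library. There was thus no replicate and no test between treatments. Intervals for shares of columns below are exact 95% binomial ones that take columns as independent, though columns are not replicates of a treatment. Every other interval below is a 95% interval for counts taken as independent molecules. Counts in the large columns described next were spread less than that (variance over mean from 0.0685 to 0.509 for the members), so the intervals are not a measured error, and their overlaps are descriptions. The pools held 1342134 human counts in ethanol and 1301232 under Nutlin-3. In each pool 113 columns held over 4000 counts and 137 held fewer; these are called large and small columns here, and the large ones carried 88.7% and 89.2% of the counts. Of the 250 column names, 219 occurred in both pools. Whether a column is 1 cell could not be settled from the table, so shares and numbers of columns below are not of cells. The line showed its type, with all 12 adrenergic neuroblastoma markers at 104 counts or more in both pools. Markers of other cells were scarce. Of the 5 fibroblast markers 4 were among the genes counted, and they summed to 79 counts in ethanol and 96 under Nutlin-3. Most of these were PDGFRB, with 38 and 41, and COL1A1, with 29 and 47, while COL1A2 was not among the genes counted. Of the 5 immune markers 2 were counted, LYZ and CD68, and they summed to 24 and 53, nearly all LYZ. Of the 3 epithelial markers 2 were counted and summed to 17 and 21, nearly all EPCAM, with 16 and 21. PTPRC, CD3E and KRT5 were not among the genes counted, so they have no measured value. All 3 sums were somewhat higher under Nutlin-3, and their part in the results was not tested. As a check of the labels, the p53 target CDKN1A had 70 counts in ethanol and 188 under Nutlin-3, and MDM2 had 315 and 504.

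A cell that copies its DNA needs the 4 deoxynucleoside triphosphates in balanced amounts. Ribonucleotide reductase, built from the large subunit RRM1 and the small subunit RRM2, makes them from ribonucleotides, and its supply limits the speed of replication. Thymidylate has a route of its own: DUT removes dUTP and gives dUMP, TYMS methylates dUMP to dTMP, and DTYMK phosphorylates dTMP. TK1 and DCK salvage deoxynucleosides, CTPS1 makes the CTP from which dCTP derives, and SAMHD1 hydrolyses surplus triphosphates. Several of these genes are known targets of E2F factors and are expressed mostly around S phase, while p53 is known to lower such genes through p21 and to raise RRM2B, an alternative small subunit.

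Promoter sequences are shown first because these enzymes share regulators. The RefSeq promoter table (GRCh38.p14, 250 bases before to 50 after each start) held all 9 members. The letters searched on both strands were TTNNCGC for E2F, where each N is C or G, CCAAT for NF-Y and TTTGAA for the cell cycle element CHR. A CCAAT can share bases with some E2F forms, but 0 such pairs occurred in the members. E2F letters were present for 6 of 9 members (TYMS, RRM1, RRM2, TK1, DUT and DCK), against 15.3% of all genes in the table. CCAAT was present for 5 (RRM1, RRM2, TK1, DTYMK and SAMHD1), against 39.7%, and TTTGAA for 2 (RRM1 and DUT), against 18.2%. CTPS1 had none of the 3 in either of its 2 windows. The sites below are 30 bases long, run 5′ to 3′ on the strand of the gene, and have the matched letters in capitals. DUT and TK1, the members with the lowest values under Nutlin-3 relative to ethanol, carry E2F letters close to a start:
DUT, chr15:48332144-48332173, plus strand: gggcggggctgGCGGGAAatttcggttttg
DUT, chr15:48332160-48332189, plus strand: aaatttcggttTTGGCGCgctccctgcggc
TK1, chr17:78187046-78187075, minus strand: aagcggtcggcGCGGGAAccaggggcttac
TYMS, RRM1 and DCK hold the same letters GCGGGAA or their reverse complement TTCCCGC, with smaller differences between the pools (values below):
TYMS, chr18:657603-657632, plus strand: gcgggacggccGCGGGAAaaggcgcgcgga
RRM1, chr11:4094451-4094480, plus strand: caagaaaaacgTTCCCGCcggttaggtttt
DCK, chr4:70993550-70993579, plus strand: ggagcgcgcacGCGGGAAcccgcgctggag
RRM2 has a run of CCAAT boxes, 3 of which lie before its downstream start:
RRM2, chr2:10122604-10122633, plus strand: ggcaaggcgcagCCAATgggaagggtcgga
RRM2, chr2:10122634-10122663, plus strand: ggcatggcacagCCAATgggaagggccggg
RRM2, chr2:10122661-10122690, plus strand: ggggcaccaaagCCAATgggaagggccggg
Counted from the start as 0, the DUT matches lie at -42 to -36 and -26 to -20, the TK1 match at -12 to -6 and the TYMS match at -39 to -33. The RRM1 match at -223 to -217 is much farther out. A match describes these letters and is not a binding site that was measured. The members with the 3 lowest fold changes, DUT, TK1 and RRM2, all hold E2F letters, and so do TYMS and DCK, which had values near 0.

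The members were compared between Nutlin-3 and ethanol as sums over each pool. All 9 had a lower scaled level in Nutlin-3, with log2 changes (Nutlin-3 over ethanol) from -0.50 for DUT to -0.03 for DCK and CTPS1 and a median of -0.20. Of the 14830 genes that passed the filter on low counts, 50.4% were lower, and their median was -0.0017. The members were chosen with earlier results of these data known. Among those results, S phase genes, a group that includes TYMS, RRM1 and RRM2, were lower in Nutlin-3. The common direction of the 9 members is therefore not an independent result. A change counts as past the limit here at a log2 size of 0.32. That limit was passed by 2 of 9 members, DUT and TK1, both lower. Of all genes that passed the filter 27.3% changed that much in either direction and 12.4% were lower by it, so 2 of 9 is near this background. Low counts scatter more, and the members are not low: among the 9058 genes with summed counts between 119 and 477, the range of the members, 4.35% were lower by that much. RRM2 stood just outside at a log2 value of -0.3209, the limit being 0.3219 in size and the next member inside it TK1 at -0.40. Summed over the members the pools held 1470 counts in ethanol (1396 to 1547) and 1213 under Nutlin-3 (1146 to 1283), or 0.110% and 0.0932% of human counts. At a stricter limit of 1.5-fold 0 of 9 members passed, against 13.7% of all genes, and at 1.1-fold 5 of 9, against 53.3%. Over the same 14830 genes, thinning the deeper pool put 3 of 9 past the limit (DUT, TK1 and RRM2), against 27.3%. Counting columns in place of counts put 1 of 9 past it (TK1), against 26.4%. DUT, at -0.21, fell outside its own counting interval there and did not pass the limit. ERCC counts as library size put all 9 past it, against 78.6%. Leaving out the shared names put 5 of 9 past it, 3 lower and 2 higher (DCK and DTYMK), against 45.9%. At most 12 counts per gene remained in a pool there. DUT, RRM2 and TK1 made up 67.7% of the gap of 257 counts.

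**Figure D1:**
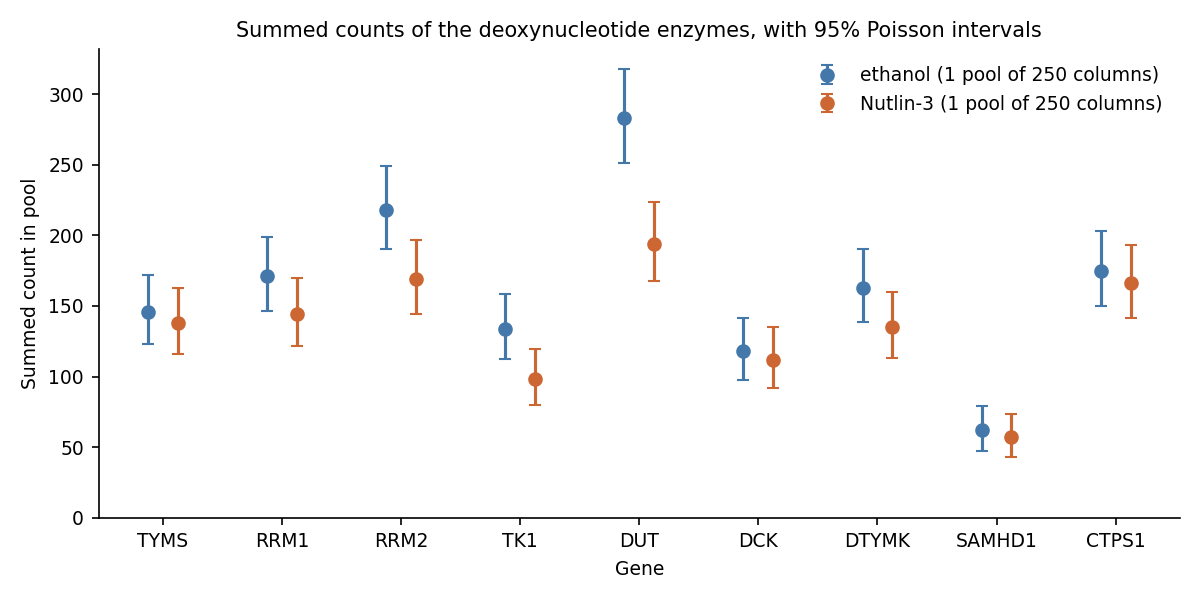
Summed counts of the 9 genes (y axis, counts) in the ethanol and Nutlin-3 pools, with points for the sums and bars for exact 95% Poisson intervals. The intervals of DUT, 251 to 318 and 168 to 223, are the only ones of the 9 pairs that do not meet.

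RRM2 encodes the small subunit of ribonucleotide reductase that carries its radical (ENSG00000171848, chromosome 2, 10120698 to 10131419 in GRCh38). It had 218 counts in ethanol (Poisson interval 190 to 249) and 169 under Nutlin-3 (144 to 196). The log2 change was -0.32 (-0.62 to -0.03), or 0.801 of the ethanol level, and the intervals of the sums overlapped. The large columns held 162 and 139 counts, with a log2 change of -0.18 (-0.52 to 0.15). The small ones held 56 and 30, with a value of -0.76 (-1.46 to -0.10). The interval included 0 in the large columns alone, and the intervals of the classes overlapped. A same-strand gene that overlaps RRM2, AC007240.1, had 12 and 6 counts, and its processed pseudogene RRM2P3 had 8 and 2.

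RRM1, the large subunit with the catalytic and regulatory sites (ENSG00000167325, chromosome 11, 4094707 to 4138876), had 171 counts in ethanol (146 to 199) and 144 under Nutlin-3 (121 to 170). Its log2 change was -0.20 (-0.53 to 0.13), and the interval included 0. Its 40 and 22 counts in small columns gave -0.72 (-1.55 to 0.06) on the log2 scale. In the large columns RRM1 had 131 and 122 counts and a value of -0.06 (-0.43 to 0.30). Every one of the 113 large columns held at least 1 RRM1 count in both pools.

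RRM2B, which is no member but pairs with RRM1 in place of RRM2 (ENSG00000048392, chromosome 8, 102204502 to 102239118), was higher under Nutlin-3. It had 46 counts in ethanol and 104 under Nutlin-3, a log2 change of 1.21 (0.71 to 1.76). The large columns held 45 and 96 of these counts and the small ones 1 and 8. Among the counts of both small subunits RRM2B took 17.4% in ethanol (13.0 to 22.5, exact binomial) and 38.1% under Nutlin-3 (32.3 to 44.1). The intervals were apart, and this share does not depend on how the pools were scaled.

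DUT, the dUTPase that keeps uracil out of DNA and hands dUMP to TYMS (ENSG00000128951, chromosome 15, 48331011 to 48343373), had 283 counts in ethanol (251 to 318) and 194 under Nutlin-3 (168 to 223). The intervals of the sums did not overlap, and the log2 change was -0.50 (-0.77 to -0.23), or 0.708 of the ethanol level. Both classes of columns showed it. The large columns had 203 and 146 counts, a value of -0.43 (-0.75 to -0.12), and the small columns 80 and 48, a value of -0.60 (-1.15 to -0.07). Only 1.38% of the 9058 genes with like summed counts had a lower fold change. An antisense gene that overlaps DUT by 846 bases, AC023355.1, had 58 and 38 counts, also fewer under Nutlin-3. Since the use of strand is not given in the sources used here, reads of the 2 genes within the shared bases cannot be told apart. The pseudogene DUTP6 had 16 and 10 counts.

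TK1, the thymidine kinase of the cytosol that is made in S phase and removed at mitosis (ENSG00000167900, chromosome 17, 78174075 to 78187233), had 134 counts in ethanol (112 to 159) and 98 under Nutlin-3 (79.6 to 119). The sums overlapped in their intervals, and the log2 change was -0.40 (-0.80 to -0.02). TK1 was also found in fewer columns. It was missing from 4 of 113 large columns in ethanol and from 23 of 113 in Nutlin-3, so that 96.5% (91.2 to 99.0) and 79.6% (71.0 to 86.6) of large columns held it. Its large-column counts were 118 and 93, a log2 change of -0.30 (-0.71 to 0.10). The small columns had 16 and 5, a value of -1.45 (-3.35 to -0.03). TK2, the mitochondrial thymidine kinase, had 19 and 33 counts, a log2 change of 0.83 (-0.01 to 1.74). The share of TK2 in the counts of both kinases was 12.4% (7.64 to 18.7) and 25.2% (18.0 to 33.5), with intervals that overlapped slightly.

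TYMS, the thymidylate synthase that fluorouracil drugs target (ENSG00000176890, chromosome 18, 657604 to 673578), was nearly level. It had 146 counts in ethanol (123 to 172) and 138 under Nutlin-3 (116 to 163), a log2 change of -0.04 (-0.38 to 0.31). The interval allows a change of either sign. Thinned at random to 700 counts per column, 13.9% of ethanol columns held it (9.38 to 19.6) and 5.88% of Nutlin-3 columns (2.97 to 10.3). Averaged over all possible draws of 700 counts the shares were 7.83% and 7.22%, so the gap belonged to that 1 draw. Large columns gave 131 and 123 counts and small columns 15 and 15. On the opposite strand, TYMSOS at the 5′ end had 35 and 51 counts, a log2 change of 0.58 with an interval that included 0, and ENOSF1, which overlaps the 3′ end that this kit reads, had 6 and 3. DTYMK, the next kinase on the thymidylate route (ENSG00000168393, chromosome 2, 241675742 to 241686991), had 163 counts in ethanol (139 to 190) and 135 under Nutlin-3 (113 to 160), a log2 change of -0.23 (-0.57 to 0.11). It was missing from 2 large columns in ethanol and from 9 in Nutlin-3. Its value was much the same in large columns, at -0.22, and in small columns, at -0.20.

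DCK, CTPS1 and SAMHD1 lay close to level. DCK, which phosphorylates deoxycytidine and activates cytarabine (ENSG00000156136, chromosome 4, 70992538 to 71030914), had 118 counts in ethanol (97.7 to 141) and 112 under Nutlin-3 (92.2 to 135), a log2 change of -0.03 (-0.42 to 0.36). Its neighbour MOB1B overlaps it on the same strand and had 101 and 98 counts. CTPS1, the CTP synthase of dividing cells (ENSG00000171793, chromosome 1, 40979335 to 41012565), had 175 counts (150 to 203) and 166 (142 to 193), a value of -0.03 (-0.35 to 0.28). The share of its paralogue CTPS2 in the counts of both synthases was 35.4% in each pool. SAMHD1, the triphosphohydrolase (ENSG00000101347, chromosome 20, 36889773 to 36951901), had the fewest counts of the 9, 62 in ethanol (47.5 to 79.5) and 57 under Nutlin-3 (43.2 to 73.9), and a log2 change of -0.07 (-0.62 to 0.47). It had no column with more than 1 count in either pool. These intervals do not show that the 3 genes stayed the same, since each allows a change past the limit in at least 1 direction.

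**Figure D2:**
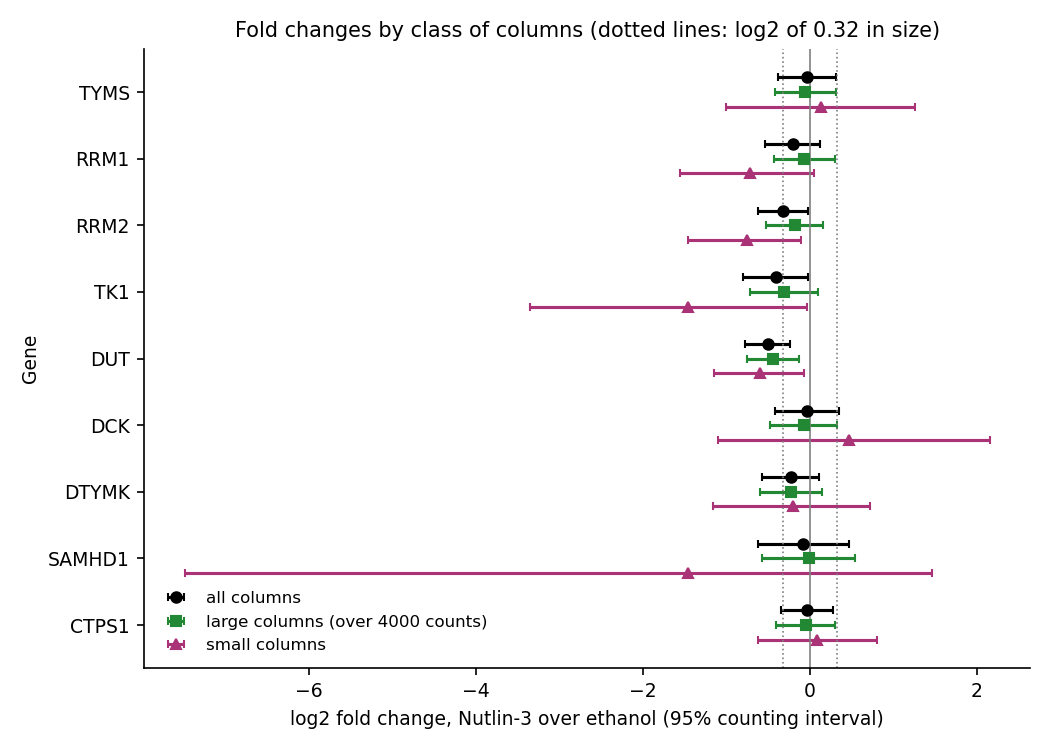
Log2 change from ethanol to Nutlin-3 (x axis) for each gene in all columns, large columns and small columns, with 95% counting intervals; dotted lines mark a log2 size of 0.32. DUT is the only gene with intervals below 0 in all 3 sets, and the small columns give the widest intervals.

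Large and small columns gave unlike sizes. In large columns all 9 members were again lower, but by a median of only -0.07, and 1 of 9 passed the limit (DUT, lower), against 26.2% of all genes in those columns and 11.9% on the lower side. In small columns 7 members passed the filter and 4 of these the limit, all lower, against 54.5% of all genes there and 27.1% on the lower side. With DCK (7 and 9 counts) and SAMHD1 (4 and 1) included, 6 of 9 passed the limit, 5 lower and 1 higher, against 62.3% of the 14830 genes, and TYMS, DCK and CTPS1 had a higher level in Nutlin-3. The members took 0.183% of human counts in the small ethanol columns and 0.131% in the small Nutlin-3 columns, against 0.100% and 0.0887% in the large ones.

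Counts in the large columns sat near 1 per gene. RRM1 had exactly 1 count in 97 of 113 ethanol columns and 104 of 113 Nutlin-3 columns, and TYMS in 94 and 102. The variance over columns was far below the mean, with a ratio of 0.147 for RRM1 in ethanol and 0.0685 under Nutlin-3, where independent molecules would give about 1. Large columns with 2 or more counts were most frequent for DUT, at 63 in ethanol and 29 in Nutlin-3, and for RRM2, at 39 and 25. DTYMK had 25 and 11 such columns, CTPS1 23 and 17, and TK1 8 and 3. DCK had exactly 1 count in 97 and 95 of them. Whether counts held near 1 per large column bear on the small values of TYMS, RRM1, DCK and CTPS1 was not tested.

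**Figure D3:**
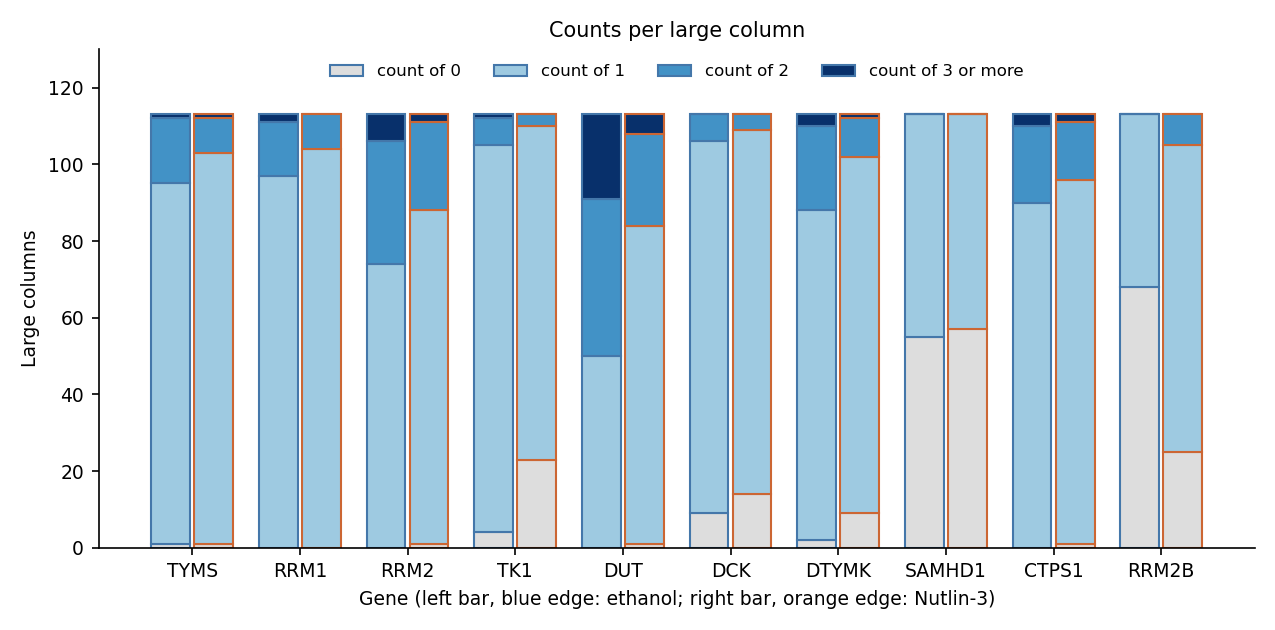
Number of the 113 large columns of each pool (y axis) with 0, 1, 2 or 3 or more counts of each gene; left bars are ethanol and right bars Nutlin-3. Most columns hold 1 count of most genes, while TK1 is missing from 4 and 23 columns, RRM2B from 68 and 25, and SAMHD1 from 55 and 57.

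Large columns held a median of 8 of the 9 members in both pools. All 9 were present in 51 ethanol and 41 Nutlin-3 large columns, and 7 or fewer in 9 and 24. None of the 9 was present in 25 of 137 small ethanol columns and in 45 of 137 small Nutlin-3 columns. At a common depth of 700 counts per column, at least 1 member was seen in 131 of 194 ethanol columns, or 67.5% (60.4 to 74.1, exact binomial), and in 102 of 187 Nutlin-3 columns, or 54.5% (47.1 to 61.8). The intervals overlapped slightly; 56 and 63 columns were too shallow and were left out. Averaged over all draws of that depth, the shares were 62.1% and 54.3%. Per gene these averages ran from 2.98% for SAMHD1 to 20.4% for DUT in ethanol and from 2.24% to 15.1% for the same genes under Nutlin-3, and DCK alone was higher there, at 5.99% against 5.25%. Without thinning the shares were 90% and 82% of the 250 columns, whose median depths were 2287 and 2010.5. The line holds no cell type that lacks these genes, so what free RNA adds to these shares could not be measured.

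The wider nucleotide pathway was described by 4 lists written from known roles. Of their 44 genes 43 passed the filter; 1 was past the limit on the lower side and 4 on the higher side, where 14.9% of all genes lay. The lower gene was SHMT1, and the higher genes were RRM2B, TK2, ADA and CMPK2; the latter had only 16 and 20 counts, and ADA was named after its values were seen. The folate and thymidylate cycle had 7 of 9 genes lower and a median of -0.14. SHMT1, the cytosolic enzyme that supplies the methyl group for thymidylate, had 110 counts in ethanol and 56 under Nutlin-3, a log2 change of -0.92 (-1.42 to -0.45). That was the lowest value among the pathway genes that passed the filter, members included. In the large columns its counts were 103 and 56. FPGS, which retains folates in the cell, had 113 and 90 counts. SLC19A1 and MTHFD2L were slightly higher, at 0.08 and 0.02.

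Genes of deoxynucleotide salvage and breakdown other than the members were divided, with 7 of 13 lower and a median of -0.01. RRM2B and TK2 had the highest values. ADA, which deaminates deoxyadenosine, had 49 and 75 counts, a value of 0.65 (0.12 to 1.21). DCTPP1, a pyrophosphatase that clears dCTP and its modified forms, had 175 and 140 counts, a log2 change of -0.28 (-0.61 to 0.05), and NUDT1, which clears oxidised purine triphosphates, 160 in ethanol and 135 under Nutlin-3. CTPS2 was at -0.03. Pyrimidine synthesis and the nucleotide kinases had 8 of 11 genes lower and a median of -0.11, with DHODH at -0.24 lowest and, of the genes with at least 50 counts, CMPK1 at 0.12 and UMPS at 0.05 highest. Purine synthesis had 6 of 10 lower and a median of -0.05, from -0.14 for IMPDH1 and -0.11 for PFAS to 0.09 for IMPDH2 and 0.13 for ADSL. With ERCC counts as the library size every value falls by 0.47 on the log2 scale, and RRM2B, TK2 and ADA are then the only pathway genes past the filter that stay higher in Nutlin-3. Each pool mixes both spike-in dilutions in an unknown proportion, so unlike mixtures and unlike amounts of RNA cannot be told apart, and in sums over a pool fewer cells with a transcript cannot be told apart from less of it per cell.

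**Figure D4:**
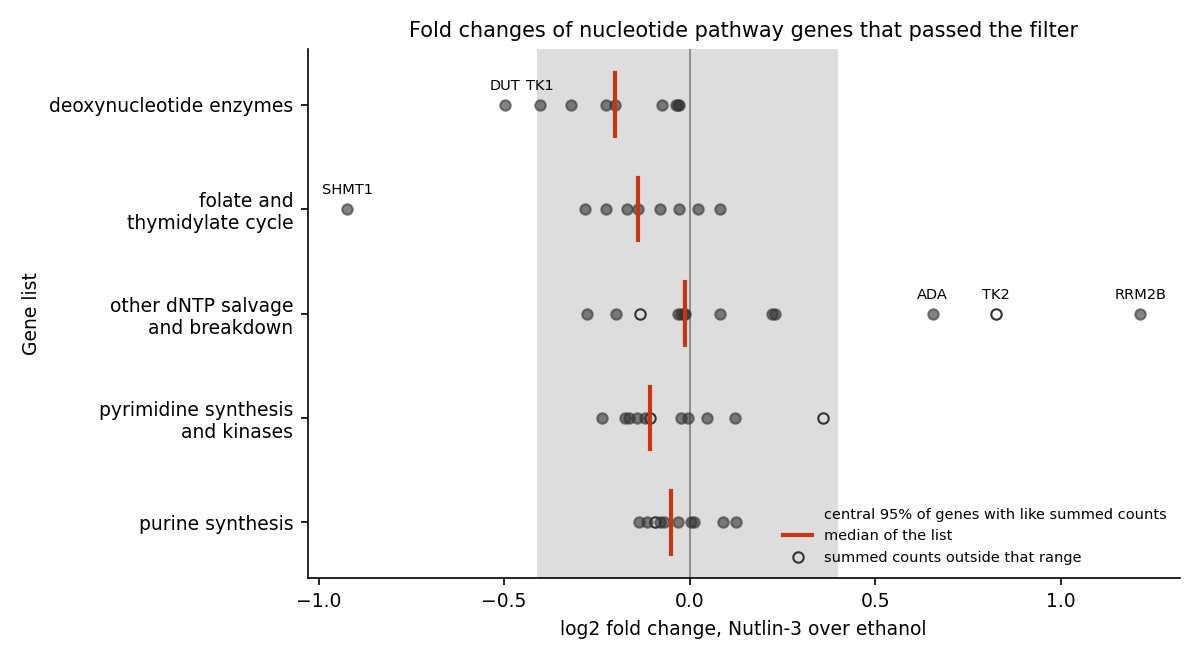
Log2 change from ethanol to Nutlin-3 (x axis) for each gene that passed the filter, by list; red lines are list medians and the grey band holds the central 95% (-0.41 to 0.40) of the 9058 genes with summed counts of 119 to 477. Open circles are genes with sums outside that range, TK2 among them, for which the band is no guide. Of the filled ones, DUT and SHMT1 lie below the band and ADA and RRM2B above it.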

How the data were processed

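RNA was measured in NGP cells on the ddSeq device with the SureCell WTA 3′ kit, per the labels' protocols. The authors deposited raw counts, whole numbers for each gene in each column. Their aligner, genome build, handling of molecular tags and choice of cells are not stated by the labels or the table. Columns named treated were taken as Nutlin-3 and columns named untreated as ethanol, and counts were summed per treatment without ERCC species. With 1 pool per treatment no test was run. Library sizes came from TMM in edgeR 4.0.16 (R 4.3.3), and its filter with a minimum count of 10 kept 14830 genes. The log2 fold change adds 0.5 to each sum. Its interval is the exact binomial one for the part of both counts that Nutlin-3 holds, and sums have exact Poisson intervals; both take counts as independent molecules, which the counts per column do not bear out. The fold and interval functions were tested on counts simulated as independent Poisson draws. That test shares the assumption of the intervals, so it cannot show that they hold for these data. Columns were thinned once, at random, for shares, and the share expected over all draws was computed as well. Positions are those of GENCODE release 29 on GRCh38, which need not be the authors' build; 25602 of 25693 identifiers matched.

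All 9 members were named whatever their values, as were RRM2B, CTPS2, DCTPP1, TK2, CDKN1A and MDM2, and from each pathway list the 2 highest and 2 lowest fold changes among genes with at least 50 counts in both pools together; a few genes that this rule names are not reported here. The members and lists were chosen with earlier results of these data known, among them that S phase genes, a group that includes TYMS, RRM1 and RRM2, were lower in Nutlin-3. Alternatives were DESeq2 1.42.0 size factors, plain sums, ERCC library sizes, other sets of columns, counting columns in place of counts, thinning, another added count, other folds and no filter.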

Additional observations from a re-analysis of the deposited data

How the results depend on the processing

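No paired analysis was possible because nothing ties a column to its library; edgeR and DESeq2 tests, the replicate block and leaving out a library were therefore not run. Of 81 member fold changes under 9 alternatives, 67 stayed within the counting interval of the first value and 76 kept its sign. Other library sizes move all genes alike. All 9 values stayed within the interval under DESeq2 size factors, plain sums and an added count of 1, which hardly move a value. The same held for large columns, for leaving out shallow columns and for thinning, which reuse most of the same counts. Much of this tally was thus set in advance. The 5 changes of sign came from small columns (3) and from counting columns with a count (2). Leaving out names shared by both pools is not in this tally, since at most 12 counts per gene remained and 4 members had equal counts in both pools, whose value is set by library size alone. ERCC library size gave a median of -0.67, with 9 of 9 past the limit, since it lowers every gene alike (median over the 14830 genes, -0.47). Small columns gave a median of -0.60. The number of members past the limit was 1 in large columns and 6 in small columns (4 of the 7 that passed the filter there). Without shared names it was 5, with 3 lower and 2 higher. It was 1 (TK1, not DUT) when columns with a count were counted and 3 after thinning to the shallower pool. For the last 4 settings, 62.3%, 45.9%, 26.4% and 27.3% of the 14830 genes were past the limit. At 1.5-fold the number of members was 0, against 13.7% of all genes, and at 1.1-fold 5, against 53.3%. Genes of the 4 pathway lists that passed the filter numbered 9, 13, 11 and 10 in all columns and 5, 6, 7 and 9 in small columns. Of those in all columns 18 were past a limit of 1.1-fold, against 53.3% of all genes. Of those in small columns 13 were past the limit, against 54.5% of all genes there. The cause was not tested. Columns with any member made up 39.4% in ethanol and 27.7% in Nutlin-3 at 350 counts and 90% and 82% without thinning. At 700 counts it was 59.3% and 48.7% in large columns and 79.0% and 63.5% in small ones. Averaged over all draws, an alternative chosen after seeing the data, it was 62.1% and 54.3%, with 51.6% and 47.6% in large and 76.7% and 64.5% in small columns. It was higher in ethanol in each of these settings. In small columns depth limits SAMHD1, DCK, TYMS and TK1, with 1 to 16 counts in a pool.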
